A study of Homo sapiens with 2 samples.

Results

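The mature miRNAs that carry the names hsa-miR-4417 to hsa-miR-4540, with any letter or arm suffix, were taken from the miRNA table by name alone. The table listed 64 of them among 1450 miRNAs. The samples were Jurkat cells, an established human T-lymphocyte line, with lnc-CEBPB-13 overexpression or as control. The labels use the name lnc-CEBPB-13 alone. The study names the overexpressed long noncoding RNA PELATON, and both names were taken here to mean the same RNA. Both groups carried a lentivirus, for overexpression or as control, and were kept as puromycin-selected stable lines. The labels gave 1 sample per group, but each deposited group mean could be solved as whole reads of 2 libraries, here named overexpression A and B and control A and B. The letters pair nothing, and nothing says that the libraries came from separate cultures, so each p-value below measures only the spread between these libraries, which may be technical.

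These miRNAs were numbered together because most of them were first reported from sequencing of human B cells. A mature miRNA guides Argonaute proteins to messenger RNAs, mainly through its seed, and the targets are then repressed. Many names of this kind belong to young, weakly expressed miRNAs in introns, and some of the short entries resemble fragments of other RNA classes.

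The libraries held between 1177485 and 2663279 reads, and overexpression B was the shallowest. Markers of T cells and other leukocytes were present, with a read in the control for 7 of 7. Their summed normalized count was 264999 to 272832 with overexpression and 280744 to 300094 in the control. The control means of the single markers ran from 7.12 to 253427, so 1 marker held most of the sum. Markers of other cell types differed between the groups. The 3 markers of heart and skeletal muscle summed to 4022 and 4818 normalized counts with overexpression against 28.8 and 6.79 in the control. The 3 red blood cell markers summed to 769 and 1126 against 158 and 121, and the 3 stromal markers to 312 and 380 against 36.0 and 56.8. The neuronal marker miR-124-3p stood at 35.4 and 52.7 against 0 and 0.848. The liver marker miR-122-5p stood at 52.7 and 183 against 32.0 and 28.0. The 4 epithelial markers summed to 730 and 575 with overexpression against 760 and 807 in the control. Their control means ran from 5.77 to 753. The myeloid marker miR-223-3p stood at 4242 and 3618 with overexpression against 4672 and 4845 in the control. The part of these RNAs in the differences below was not tested. PELATON is no miRNA and is not in the table, so the labels could not be checked against it.

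The sequences that the results turn on are shown from RefSeq, build GRCh38.p14, which held 61 of the 64 members. The capitals mark the seed, bases 2 to 8. The first set holds the abundant members.
miR-4454: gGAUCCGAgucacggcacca
miR-4521: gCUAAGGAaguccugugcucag
miR-4440: uGUCGUGGggcuugcuggcuug
miR-4485-3p: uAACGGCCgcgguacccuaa
The second set holds some of the 12 members with a mean of at least 1 that were higher with overexpression in both libraries. Each of those shown is rich in G and C. Of those not shown, miR-4426 has 41.2% G and C and miR-4517 has 36%.
miR-4488: aGGGGGCGggcuccggcg
miR-4492: gGGGCUGGgcgcgcgcc
miR-4516: gGGAGAAGggucggggc
miR-4449: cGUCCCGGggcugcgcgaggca
miR-4515: aGGACUGGacucccggcagccc
The third set holds members that were lower with overexpression in both libraries.
miR-4473: cUAGUGCUcuccguuacaagua
miR-4446-3p: cAGGGCUGgcagugacaugggu
miR-4457: uCACAAGGuauugacuggcgua
miR-4421: aCCUGUCUguggaaaggagcua
The last set holds members whose seed is that of an abundant family. The first pair has the let-7 seed and the other has the miR-320 seed.
miR-4458: aGAGGUAGguguggaagaa
miR-4500: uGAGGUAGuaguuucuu
miR-4429: aAAAGCUGggcugagaggcg

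RefSeq held 128 mature names in this number range, and those beyond the 64 were not analysed here. Each of the 1450 listed miRNAs had at least 1 read, so that detection over both groups followed from the listing. Most members stood at low levels. At least 1 read was found for 49 of the 64 with overexpression and for 60 in the control, and 30 had a read in all 4 libraries. Of all 1450 miRNAs, 1216 had a read with overexpression, 1314 in the control and 788 in all 4 libraries. Reads were found for 43 members in overexpression A, 39 in overexpression B, 49 in control A and 52 in control B. After thinning every library to the depth of the shallowest, the group counts of members were 47 and 50, so the gap in detection was smaller at equal depth. As these are bulk libraries, fewer cells with a miRNA and less of it per cell cannot be told apart for any member. The 15 members read only in the control and the 4 read only with overexpression had at most 8 reads each except miR-4458, which is described below. Among all 1450 miRNAs, 234 were read only in the control and 136 only with overexpression. A mean normalized count of at least 1 over both groups was reached by 44 members, or 68.8%, against 77.3% of all other miRNAs. A mean of at least 10 was reached by 19 members, or 29.7%, against 41.1%, and a mean of at least 100 by 6 members. The median mean was 2.89 for the members and 5.55 for all other miRNAs. The names miR-4640 to miR-4806 and miR-6715 to miR-6895, other late-numbered blocks, had lower medians of 1.99 and 1.36. They reached a mean of at least 10 in 24 of 125 and in 11 of 207 miRNAs.

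The members took 0.418% and 0.439% of the reads of the overexpression libraries and 0.375% and 0.416% of the reads of the control libraries. In normalized counts they summed to 7786 and 8000 against 7848 and 9398, and these sums overlapped between the groups. miR-4454 and miR-4521 alone held 81.9% and 77.7% of the member reads with overexpression and 82.7% and 90.3% in the control. Without this pair the sum was 1411 and 1782 normalized counts with overexpression and 1360 and 907 in the control, so that both overexpression libraries were above both control libraries, overexpression A by little.

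**Figure D1:**
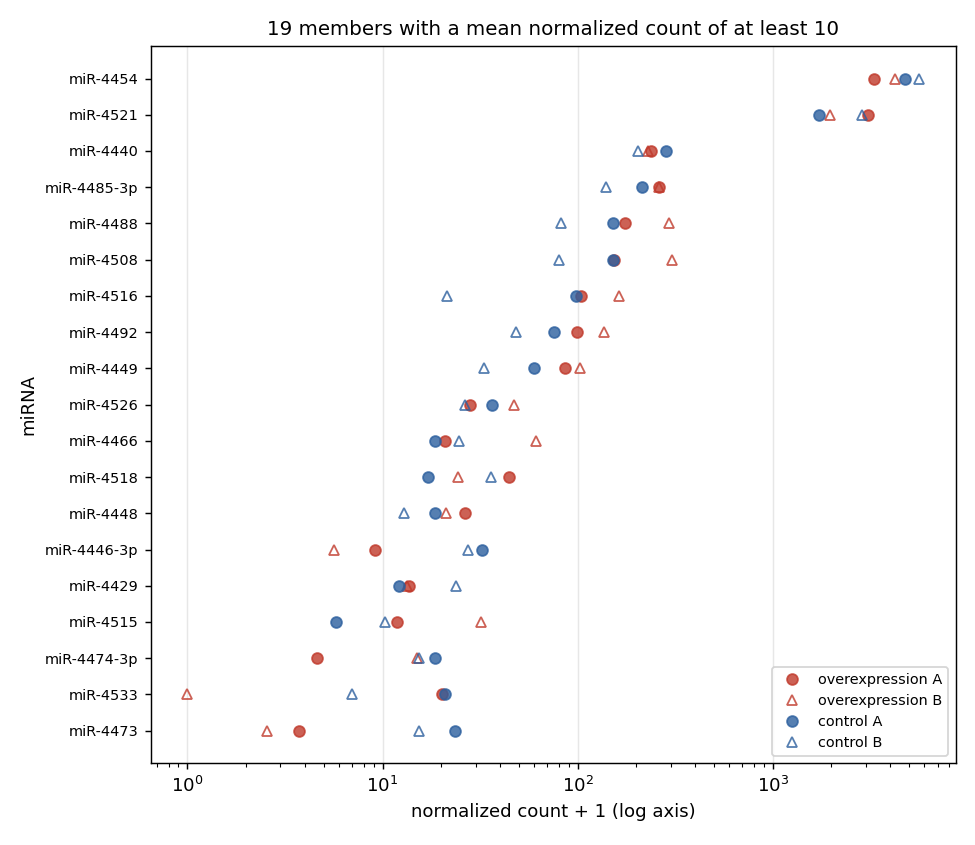
Normalized count plus 1, on a log axis, of the 19 members with a mean of at least 10 in each of the 4 libraries (red, overexpression; blue, control; filled circles, library A; open triangles, library B). miR-4454 and miR-4521 stand far above the rest, and miR-4446-3p and miR-4473 have both red symbols to the left of both blue ones.

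miR-4454 was the most abundant member and ranked 65 of the 1450 miRNAs. Its normalized count was 3312 and 4243 with overexpression and 4752 and 5617 in the control, and the groups did not overlap. The limma difference on the log2 scale was -0.46 (standard error 0.18, 95% interval -0.88 to -0.04), with a Benjamini-Hochberg adjusted p of 0.224. Scaling by total reads moved the log2 ratio of its means from -0.46 to -0.21, and as shares of all reads the groups overlapped. The sequence of miR-4454 is known to resemble the end of a histidine transfer RNA, and reads from both would be counted alike. It lay on chromosome 4 from 163093607 to 163093626 on the minus strand, with no annotated gene on that strand.

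miR-4521 ranked 101. Its normalized count was 3063 and 1975 with overexpression and 1736 and 2874 in the control, so that the groups interleaved. The limma difference was 0.14 (95% interval -0.51 to 0.79). miR-4440, from an intron of HDAC4, the gene of a class IIa histone deacetylase, was read at 237 and 229 with overexpression and 283 and 202 in the control. Its difference was -0.03 (95% interval -0.60 to 0.53).

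miR-4485-3p was read at 259 and 260 normalized counts with overexpression and 212 and 138 in the control. The groups did not overlap, and the limma difference was 0.60 (95% interval -0.02 to 1.21, adjusted p 0.291). Its 20 bases also occur in MT-RNR2, the 16S ribosomal RNA of mitochondria, and in the MT-RNR2-like genes MTRNR2L8 and MTRNR2L12. Its count could therefore not be assigned to the miRNA locus on chromosome 11. The other arm, miR-4485-5p, was read at 7.27 and 7.75 with overexpression and 9.61 and 11.03 in the control, with both overexpression libraries below both control libraries.

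The difference between the groups was asked for every member with a mean of at least 1. By fold alone, 10 of these 44 members were higher by at least 2-fold with overexpression, or 22.7%, against 15.6% of all 1115 miRNAs at that level. Lower by at least 2-fold were 8 members, or 18.2%, against 14.7% of all. Both overexpression libraries were above both control libraries for 12 members, or 27.3%, against 22.4% of all, and below them for 9 members, or 20.5%, against 23.8% of all. The median log2 ratio was 0.02 for the members and 0.06 for all miRNAs. Leaving out a library moved these counts. Without overexpression B, 4 members were higher, without overexpression A, 14 were lower, and without control A, 5 were lower. No share over all miRNAs is given for these left-out counts, so they do not single out the members. The median was -0.21 without overexpression A, where that of all miRNAs was -0.06. Without control A it was 0.41, where that of all miRNAs was 0.07. These are ratios of the group means plus 1, which understate the change of rare miRNAs.

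No member passed the test. The limma fit over all 1115 miRNAs found 0 members that rose (1.88% of all miRNAs did) and 0 that fell (3.05% of all) at an adjusted p under 0.05. An unadjusted p under 0.05 was found for 11 of the 44 members against 18.6% of all miRNAs. With voom weights limma called 0 members, where 33 of all 1115 miRNAs rose and 47 fell. With these weights 9 members had an unadjusted p under 0.05, and no share over all miRNAs is given for that count. In the main fit the lowest adjusted p of a member was 0.104, that of miR-4473. Over the alternatives fitted to all 4 libraries the lowest ran from 0.0686 to 0.149. A p that missed the threshold does not show that the levels were alike. At this depth many members had fewer than 10 reads, where differences of several-fold lay inside the error.

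**Figure D2:**
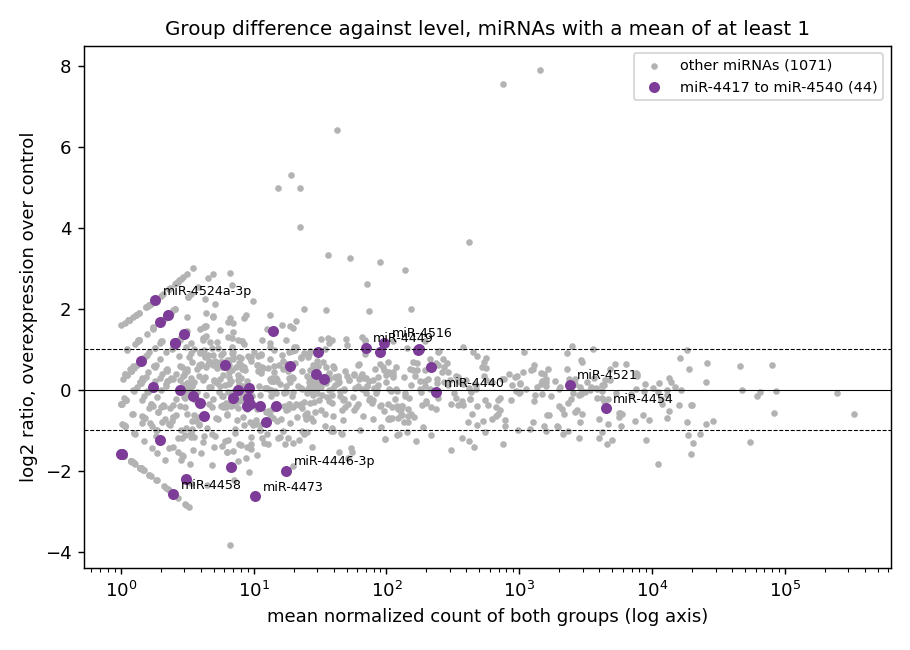
Log2 ratio of overexpression over control (group means plus 1) against the mean normalized count on a log axis, for the 1115 miRNAs with a mean of at least 1; the 44 members are purple and dashed lines mark 2-fold. Above a mean of 10, 4 members lie on or above the upper line and 2 members, miR-4446-3p and miR-4473, lie below the lower line.

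Among the 19 members with a mean of at least 10, 4 were higher by 2-fold, or 21.1%, where 8.16% of the 588 miRNAs at that level were. Of these 4, miR-4488 and miR-4449 lost the call with upper quartile scaling or a pseudocount of 5. All 4 lost it without overexpression B, and no share over all miRNAs is given for these settings. Lower by 2-fold were 2 members, or 10.5%, where 9.52% of the 588 were. At this level 8 members had both overexpression libraries above both control libraries, against 28.7% of the 588, and 4 had them below, against 29.8%.

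The members that were lower with overexpression were led by miR-4473. It was read at 2.72 and 1.55 normalized counts with overexpression, from 3 reads and 1 read, and at 22.4 and 14.4 in the control, from 28 and 17 reads. Both overexpression libraries lay far below both control libraries. The limma difference was -2.62 on the log2 scale (standard error 0.75, 95% interval -4.34 to -0.91, adjusted p 0.104). miR-4473 lies at chromosome 9 from 20411161 to 20411182 on the minus strand, in an intron of MLLT3, which codes for a subunit of the super elongation complex and is a fusion partner of KMT2A in leukaemia.

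miR-4446-3p was read at 8.17 and 4.65 normalized counts with overexpression and 31.2 and 26.3 in the control. The groups were well apart, and the limma difference was -2.04 (standard error 0.59, 95% interval -3.41 to -0.68, adjusted p 0.109). It lies at chromosome 3 from 113594918 to 113594939 on the plus strand, in an intron of SIDT1, a gene of the SID1 family of membrane proteins linked to RNA transport. The other arm of the hairpin, miR-4446-5p, had no read with overexpression and 1 in control A and 1 in control B, too few for a comparison of the arms. miR-4473, miR-4446-3p and the higher member miR-4449 are in the study's own list, which was chosen on these samples, and so their direction is not independent evidence.

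miR-4474 is a separate hairpin in MLLT3 introns, on the same strand as miR-4473. miR-4474-3p was read at 3.63 and 13.9 normalized counts with overexpression and 17.6 and 14.4 in the control. Overexpression A was low while overexpression B nearly reached the control, and the limma difference was -1.03 (95% interval -2.73 to 0.68, adjusted p 0.555). miR-4474-5p was found as 1 read, in control B.

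miR-4457 was read at 4.54 and 0 normalized counts with overexpression and 8.81 and 13.6 in the control, and miR-4421 at 0.908 and 0 against 7.20 and 4.24. Both were lower in both overexpression libraries. The limma difference was -2.34 for miR-4457 (95% interval -4.68 to -0.01, adjusted p 0.267) and -2.25 for miR-4421 (95% interval -4.44 to -0.05, adjusted p 0.257). miR-4421 had 1 read with overexpression. Its pooled reads, scaled by the size factors, stood at 0.0993 of the control (exact 95% interval 0.00235 to 0.653, counting error only).

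miR-4458 was the only member at 0 in 1 group with at least 10 reads in the other. It had 0 reads in both overexpression libraries and 5 and 7 reads in the control, or 4.002 and 5.94 normalized counts. Taken against the 3 reads over the group that a count of 0 allows, its level with overexpression was at least 2.89-fold lower, with the control mean taken as measured. With the counting error of both groups, the exact 95% interval of the pooled ratio reached up to 0.5003 of the control. The adjusted p by limma was 0.200. Its seed is that of the let-7 family, which restrains cell growth genes and matures late in development. The abundant let-7 miRNAs with this seed were lower too, let-7a-5p at a mean of 9817 with overexpression against 29654 in the control and miR-98-5p at 2947 against 7000. The 19 bases of miR-4458 lie in an exon of its host transcript MIR4458HG. miR-4500, the other member with this seed, was found as 1 read, in overexpression A.

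Several well-read members were higher in both overexpression libraries. miR-4488 was read at 174 and 294 normalized counts with overexpression and 151 and 81.5 in the control. miR-4508 was read at 153 and 302 against 150 and 79.8, and miR-4492 at 98.1 and 136 against 74.4 and 47.5. The order of the libraries was alike in these miRNAs, with overexpression B highest, then overexpression A, then control A, and control B lowest.

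miR-4516 was read at 104 and 163 normalized counts with overexpression and 97.7 and 20.4 in the control. miR-4449 was read at 85.4 and 102 against 58.4 and 32.2. The groups did not overlap in these 5 miRNAs, which were put together after their values were seen. Nor did they overlap in miR-4485-3p, miR-4448 and miR-4515, which were also higher and had a mean of at least 10. Of the 19 members with a mean of at least 10, 6 had this order of the libraries, or 31.6%, these 5 and miR-4485-3p, against 13.6% of the 588 miRNAs at that level. The order was read off these 5 members, so the share of the members was raised by that choice and tests nothing. The nearest libraries of the 5, overexpression A and control A, differed only by 1.01-fold to 1.46-fold. The limma difference was 1.02 for miR-4488 (95% interval 0.17 to 1.88, adjusted p 0.188) and 0.96 for miR-4508 (0.03 to 1.90, adjusted p 0.253). It was 0.95 for miR-4492 (0.15 to 1.74, adjusted p 0.192), 1.51 for miR-4516 (0.05 to 2.97, adjusted p 0.253) and 1.09 for miR-4449 (0.21 to 1.96, adjusted p 0.172).

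The log2 ratio of group means put miR-4488, at 1.00, just inside the 2-fold line and miR-4508, at 0.98, just outside it. Without overexpression B, the log2 ratio of miR-4488 was 0.58, that of miR-4516 0.80 and that of miR-4449 0.90. Without control B they stood at 0.63, 0.44 and 0.67. Thus the 2-fold calls of these 3 members rested on each of these libraries. miR-4449 lies in an intron of DANCR, a long noncoding RNA gene, at chromosome 4 from 52712720 to 52712741 on the plus strand. miR-4516 lies opposite an intron of PKD1, the gene of polycystin, and miR-4492 opposite an exon of BCL9L, a co-activator gene of the Wnt pathway.

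miR-4515 was read at 10.9 and 31.0 normalized counts with overexpression and 4.80 and 9.33 in the control. The groups were apart, but overexpression A was close to control B, and the limma difference was 1.33 (95% interval -0.34 to 3.004, adjusted p 0.402). Without overexpression B the log2 ratio of its means was 0.56. miR-4466 was read at 19.98 and 60.4 against 17.6 and 23.8, with overlap. miR-4448 was read at 25.4 and 20.1 against 17.6 and 11.9, with no overlap and a limma difference of 0.61 (95% interval -0.60 to 1.82).

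**Figure D3:**
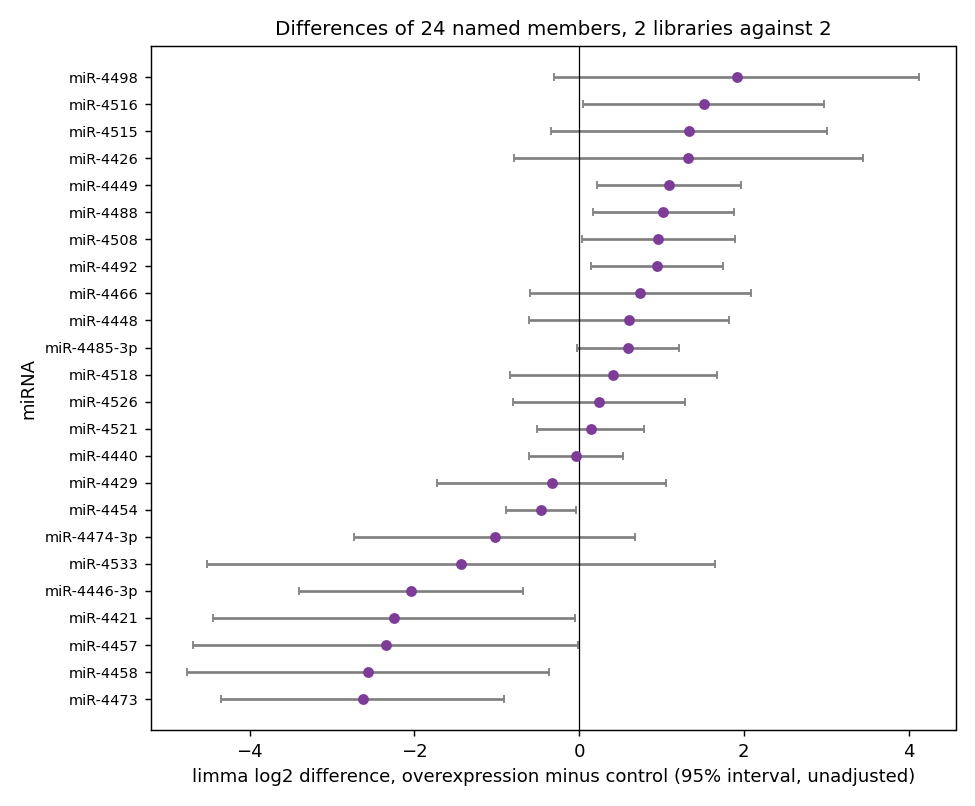
Limma difference on the log2 scale, overexpression minus control, with its unadjusted 95% interval, for the 24 named members with a mean of at least 1. The intervals of miR-4473 and miR-4446-3p lie farthest below 0 at their upper ends, and those of miR-4449 and miR-4488 farthest above 0 at their lower ends.

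The remaining members with a mean of at least 10 overlapped between the groups. miR-4526, from an intron of LDLRAD4, was read at 27.2 and 46.5 with overexpression and 35.2 and 25.5 in the control. miR-4518, from an intron of ITGAL, which codes for a subunit of the leukocyte integrin LFA-1, was read at 43.6 and 23.2 against 16.01 and 34.8. miR-4533 ranged from 0 to 19.1 within the overexpression group and from 5.94 to 20.01 within the control. For these 3 the libraries of a group differed as much as the groups did. miR-4429, which shares its seed with miR-320b, miR-320c and miR-320d, was read at 12.7 and 12.4 against 11.2 and 22.9. miR-320b itself stood at a mean of 14873 with overexpression and 12120 in the control.

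Composition varied along with the difference between the groups. Across the 18 members with a mean of at least 10 and a known sequence, GC content and the log2 ratio had a Spearman correlation of 0.65 (Pearson 0.64), and across 491 other miRNAs of that level the Spearman correlation was 0.48. At a mean of at least 1 it was lower, 0.38 across 41 members and 0.28 across 932 other miRNAs. All these points share the same 4 libraries, and the values describe miRNAs, not replicates. GC content also varied with the ratio of libraries inside a group, unevenly. With the log2 ratio of overexpression A over B the Spearman correlation was -0.54 for these 18 members and -0.12 for the 491 others, and with that of control A over B it was 0.34 and 0.29. Over the 41 members with a mean of at least 1 the values were -0.23 and -0.09. With a smooth trend on GC content removed, an alternative added after the data were seen, the log2 ratio was 0.43 for miR-4488, 0.35 for miR-4492, 0.67 for miR-4516 and 0.50 for miR-4449. It was -2.58 for miR-4473 and -2.15 for miR-4446-3p. These stayed past 2-fold, while miR-4488, miR-4516 and miR-4449 did not. The trend was fitted to these same log2 ratios, members included, so the ratios of GC-rich members were bound to shrink. The contrast between the sets therefore tests nothing, and GC content as a cause was not tested.

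Of the 8 members with a GC content of at least 75% and a mean of at least 1, 3 were higher by 2-fold and 0 were lower, with a median log2 ratio of 0.93. The 63 other miRNAs of that GC content had a median of 0.46, with 17 higher and 4 lower. Of the 19 members under 60% GC, 3 were higher and 6 were lower, with a median of -0.22, where the 637 other miRNAs under 60% had a median of -0.08, with 80 higher and 109 lower. Members of 17 to 18 bases were higher in 5 of 9 and lower in 1 of 9, with a median of 1.00. The 18 other miRNAs of 17 to 18 bases had a median of -0.02, with 3 higher and 2 lower. Of the higher short members, miR-4442, miR-4451 and miR-4426 had only 6, 8 and 12 reads over all libraries. The rest, miR-4488 and miR-4516, were also counted above among those of at least 75% GC.

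**Figure D4:**
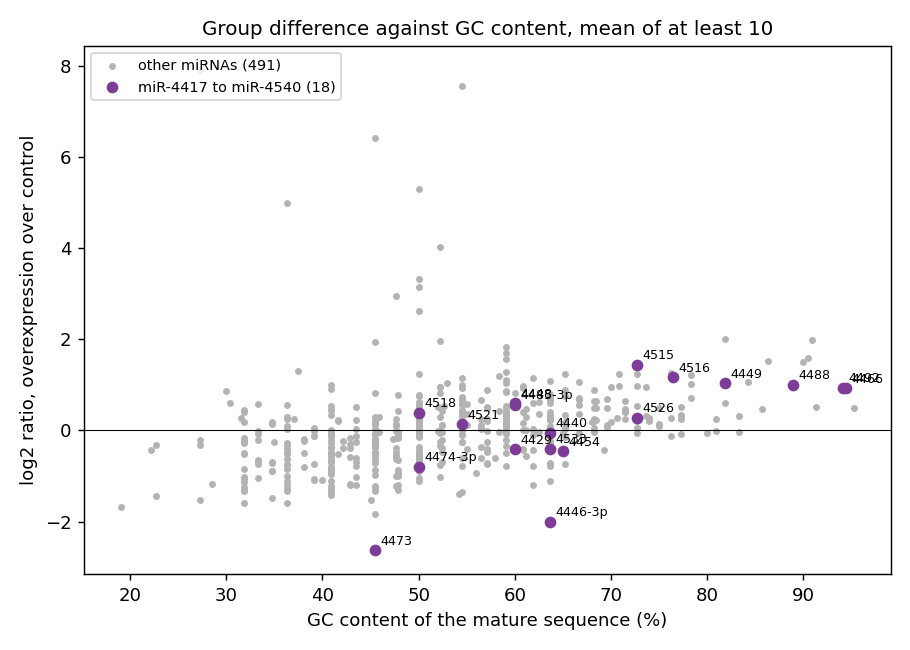
Log2 ratio of overexpression over control against the GC content of the mature sequence in percent, for miRNAs with a mean of at least 10; the 18 members with a known sequence are purple and carry their numbers. Members above 75% GC lie near a log2 ratio of 1, and miR-4473 and miR-4446-3p lie below all other members.

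Of the 61 with a sequence, 26 lay in introns of a gene on the same strand, 9 in an exon and 26 outside any gene on that strand. Among those with a mean of at least 1, the intronic members were higher in 5 and lower in 2 of 17, with a median log2 ratio of -0.01. The members outside genes were higher in 2 and lower in 5 of 17, with a median of -0.33, and those in an exon were higher in 2 and lower in 1 of 7, with a median of 0.56. Over all miRNAs 15.6% were higher and 14.7% lower, and the host classes of other miRNAs were not determined. miR-4420, from an intron of LAPTM5, a lysosomal protein gene of blood cells, was read at 0.908 and 4.65 with overexpression and 4.80 and 0.848 in the control, and miR-4479, from an intron of the signalling adaptor gene TRAF2, at 12.7 and 0 against 4.002 and 11.03.

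Shared seeds linked few members to each other. miR-4492 and miR-4498 have the same seed. miR-4498 was read at 3.63 and 4.65 normalized counts with overexpression, from 4 and 3 reads, and at 0 and 0.848 in the control. Its pooled ratio was 9.73, with an exact 95% interval of 1.25 to 439 for counting error only, and its adjusted p by limma was 0.351. miR-5001-5p, which has this seed too and is no member, stood at means of 25.1 with overexpression and 10.1 in the control, and miR-762, also no member, at 0 and 2.001.

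The rare members rested on few reads, and their counting intervals do not cover the spread between libraries. miR-4426 was read at 6.36 and 3.10 normalized counts with overexpression and 1.60 and 0.848 in the control, and its pooled ratio was 4.17 with an interval of 1.04 to 23.9. Its 17 bases also occur in the transcript of RPS27A, a gene of ubiquitin and a ribosomal protein, so that its reads could not be assigned. miR-4496, miR-4451, miR-4442, miR-4478, miR-4524a-3p, miR-4502 and miR-4460 passed the 2-fold line on 5 to 9 reads over all 4 libraries, and were named for that after their values were seen. Of these, miR-4524a-3p had 8 reads, all in overexpression A, and miR-4460 had 5 reads, all in control A. The other 20 members, with a mean under 1, had 1 to 4 reads each. They were read only in the control in 12 cases, only with overexpression in 3 and in both groups in 5.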

How the data were processed

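Small RNA of Jurkat cells was sequenced in 1 control and 1 overexpression sample by the labels. The methods name a small RNA kit and the labels an mRNA kit. The deposited signal values are mean normalized counts per miRNA and group: the authors divided reads by DESeq size factors (build GRCh38.p14 by the submitters' notes), and the aligner and miRNA annotation are not given in the sources used here. Deposited fold changes and p-values of the authors' comparison were not used.

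Each group mean was solved as whole reads of 2 libraries over 2 size factors, which were 1.10 and 0.645 for overexpression and 1.25 and 1.18 for the control. All 1450 values of each group had 1 solution, and size factors recomputed from 788 miRNAs came out at the same values. Ratios are overexpression over control of means plus 1. limma 3.58.1 (R 4.3.3; trended prior, log2 of normalized count plus 1) was fitted on the 1115 miRNAs whose mean reached 1, and p-values were adjusted over all of them (Benjamini-Hochberg). This was checked on simulated data. Intervals of pooled reads are exact binomial, cover counting error only, and take reads as independent.

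The text names members with a mean of at least 10; the 5 highest and 5 lowest log2 ratios on at least 10 reads; miR-4446-3p, miR-4473 and miR-4449; members at 0 in 1 group with at least 10 reads in the other; and members sharing a seed or hairpin with these. Members, lists and marker sets were chosen with earlier results of these data known. Sequences and positions are from RefSeq (GRCh38.p14), hosts from GENCODE 29 (GRCh38), and other matches were searched in GENCODE transcripts, not the genome. Alternatives changed the scaling, pseudocount, filter, fold, libraries and weights; removal of the GC trend (loess, span 0.5) was added after the data were seen.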

Additional observations from a re-analysis of the deposited data

How the results depend on the processing

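For 2-fold higher members the main count of 10 became 2 with a pseudocount of 5, 3 with at least 50 reads, 16 at 1.5-fold and 1 at 4-fold, and ran from 4 to 14 when a library was left out. For 2-fold lower members the main count of 8 became 3 with a pseudocount of 5, 14 with no filter, 1 with at least 50 reads and 4 at 4-fold, and ran from 5 to 14 when a library was left out. It was 14 without overexpression A and 5 without control A, while the higher count of 4 was without overexpression B. No share over all miRNAs is given for these alternative counts, so they do not single out the members. The median log2 ratio of the members, 0.02, was 0.20 with total reads, 0.19 with total reads without the 10 most abundant miRNAs, -0.0932 with the upper quartile, -0.16 with the GC trend removed, -0.18 with no filter and 0.38 with at least 50 reads, and -0.21 (without overexpression A) to 0.41 (without control A) when a library was left out. The median of all miRNAs was 0.06 in the main scaling, 0.27 with total reads and 0.26 with total reads without the 10 most abundant miRNAs. It was -0.09 with the upper quartile, -0.04 with the GC trend removed, -0.004 with no filter and 0.02 with at least 50 reads. When a library was left out, the median of all miRNAs ran from -0.06 to 0.07. The summed log2 ratio, -0.13, was 0.11 with total reads, 0.10 without the 10 most abundant miRNAs and -0.29 with the upper quartile, and ran from -0.25 to 0.01 when a library was left out. With at least 10 reads in a group, 25 members were detected with overexpression and 31 in the control. The cause of these moves was not tested beyond the settings' own construction.

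limma called 0 members in each alternative. Of all 1115 miRNAs, it found 16 that rose and 8 that fell with total reads, and 33 and 47 with voom weights. With at least 50 reads, 17 members were tested among 564 miRNAs, of which 30 rose and 49 fell by limma. When a library was left out it called 0 of all 1115 miRNAs, with the lone library assumed to vary like the other group, so that these fits say nothing about stability. Of 293 alternative log2 ratios of named members, 280 moved by less than the spread between libraries, 13 moved by more, and 0 with a 2-fold call changed sign. This spread came from the same libraries, so leaving a library out could seldom move a ratio by more. The ratio of miR-4516 went from 1.16 to 2.65 without control A and was counted among the 280. These counts therefore do not show stability. miR-4446-3p, miR-4473 and miR-4457 stayed lower by 2-fold in 11 of 11 alternatives, at -2.40 to -1.56, -2.93 to -1.71 and -3.61 to -1.14. miR-4488 and miR-4449 each lost it in 6 of 11 and miR-4516 in 3 of 11, the GC trend among them. Of the rare members past 2-fold, miR-4496 and miR-4451 turned to -1.14 and miR-4478 to 0.83 when a library was left out. No paired analysis was possible because the labels give 1 sample per group and the recovered libraries carry no numbers that pair them.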
